A study of Mus musculus with 6 samples.

Results

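Transcripts of 10 genes with which dendritic cells (DCs) signal to T cells were examined in sorted mouse thymic DCs. The genes were taken by symbol (Cd40, Cd80, Cd86, Cd83, Cd274, Cd200, Il15ra, Traf1, Il4i1 and Il12b) from 23420 gene symbols, and all 10 were found. They were chosen with earlier results of these data known. The study sequenced RNA of wild type mice in 6 libraries of 1 batch, 2 libraries in each of 3 groups. The cells called YG+ pDCs were plasmacytoid DCs (pDCs), sorted as CD11c low and B220 positive, with yellow-green (YG) fluorescent microspheres. They came from thymuses of mice in which MC38 tumours, a colon carcinoma line, had grown for 12 days before microspheres were injected into the tumour, and the thymus was taken 2 days later. PBS pDCs, sorted by the same CD11c and B220 gate, and PBS Sirpa+ DCs, gated on high CD11c and on Sirpa, came from mice labelled as given PBS for 2 weeks. The labels give no tumour for the PBS mice, so the tumour, the microspheres and the YG gate cannot be told apart between YG+ and PBS pDCs. Whether the 2 libraries of a group are from different animals is not stated either. The tests therefore weigh differences against the spread of these samples alone, and that spread may be technical. Age and sex were not stated.

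As background, a naive T cell that recognises peptide on a DC needs further signals. The B7 proteins encoded by Cd80 and Cd86 give such a signal through CD28 and restrain the T cell through CTLA-4. CD40 receives a signal back from T cells through CD40 ligand and, by way of adaptors of the TRAF family and NF-kB, raises B7 and cytokine genes. In the thymus, B7 and CD40 on DCs and epithelium are known for their part in negative selection and in the formation of regulatory T cells. Immature pDCs are known for low levels of B7 proteins and for secretion of type I interferon. Conventional DCs raise this set of genes when they mature.

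Promoter windows of Cd80 and Il12b are shown because these genes had the smallest p of the 10 when YG+ pDCs were set against PBS pDCs. The sequences are RefSeq's for GRCm38.p6, from 250 bases before to 50 bases after an annotated transcription start, written on the gene's strand. Capitals mark matches to the searched motifs. The Cd80 window is chr16:38458683-38458982 (+) and the Il12b window chr11:44399813-44400112 (+).
Cd80: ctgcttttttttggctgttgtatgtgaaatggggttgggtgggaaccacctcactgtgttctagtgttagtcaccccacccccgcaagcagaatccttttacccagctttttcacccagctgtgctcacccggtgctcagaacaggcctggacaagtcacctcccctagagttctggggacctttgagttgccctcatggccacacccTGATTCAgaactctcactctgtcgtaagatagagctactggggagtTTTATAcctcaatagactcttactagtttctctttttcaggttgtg
Il12b: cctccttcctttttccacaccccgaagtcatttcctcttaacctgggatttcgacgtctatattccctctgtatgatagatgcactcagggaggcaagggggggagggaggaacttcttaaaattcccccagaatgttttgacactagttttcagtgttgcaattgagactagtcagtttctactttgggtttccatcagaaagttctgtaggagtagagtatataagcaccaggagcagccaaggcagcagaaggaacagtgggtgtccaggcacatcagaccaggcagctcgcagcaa
The Cd80 window held TGATTCA, a match to the AP-1 motif TGANTCA, 42 bases before the start, and a match to TATAAA on the minus strand, written TTTATA here, 4 bases after it. The Il12b window held none of the motifs searched. Searches covered both strands and took the NF-kB consensus, AP-1 (TGANTCA), the interferon-stimulated response element (ISRE) and TATAAA. The tables held 8 windows for 7 of the 10 genes, and Cd40, Cd86 and Cd83 had none. AP-1 matched 2 of the 8 windows (Cd80 and Il15ra), where 7.81% of all 32817 windows hold a match, and TATAAA matched 1 of 8 against 13.6%. The NF-kB consensus matched 0 of 8 against 5.8%, and the ISRE 0 of 8 against 3.43%. A match describes letters in the window and is no evidence of binding.

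The gene total of a library ran from 177844 counts in PBS pDC replicate 1 to 713966 in YG+ pDC replicate 1, which is 0.842% to 3.36% of uniquely placed reads. PBS pDC replicate 1 was the shallowest library, with a ratio of Tsix to Xist counts of 20.5 against 2.70 to 11.3 elsewhere. Next was Sirpa+ DC replicate 1, with 261136 counts, 1.13% of uniquely placed reads and a ratio of 11.3. Tsix counts exceeded Xist counts in every library. The strand setting of the counts is not given, and that limit applies to every gene. Levels are normalised read counts (CPM, reads per 1e6 of the filtered gene total after TMM scaling), and a mean ± SD is over the 2 libraries of a group. A gene with 0 counts could have reached 4.21 to 19.1 CPM in a library, at 3 counts, and such limits, like the intervals of shares, cover counting error alone. The 7 pDC markers summed to 3786 and 5295 CPM in YG+ pDC replicates 1 and 2, and to 5294 and 5470 in PBS pDCs. In Sirpa+ DCs they summed to 753 to 833 CPM. The 8 markers of Sirpa+ DCs summed to 6935 to 9291 CPM in that group and 1792 to 2832 in the pDC libraries, but most of the first sum was the MHC class II gene H2-Eb1 (5492 and 7339 CPM). Sirpa itself was 575 and 748 CPM in Sirpa+ DCs and 198 to 392 CPM in the pDC libraries, while Clec10a (42.3 and 31.9 against 102 to 171 CPM) and Irf4 (157 and 169 against 166 to 286 CPM) were not higher in Sirpa+ DCs, and Itgam overlapped between the groups. B cell markers summed to 459 to 580.1 CPM in the pDC groups and to 15.95 to 21.2 CPM in Sirpa+ DCs. The 7 T cell markers summed to 546 to 696 CPM in pDCs and 144 to 157 in Sirpa+ DCs, with Cd3g at 0 in every library.

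Of the 10 genes, 8 had enough counts to be tested, and Cd200 and Il4i1 did not. Il12b and Il15ra had enough only through the Sirpa+ DC libraries, where they were highest. In PBS pDCs 5 of the 8 were lower than in Sirpa+ DCs at an adjusted p under 0.05 (Cd40, Cd80, Cd274, Traf1 and Il12b) and 0 were higher. Over all 8141 genes tested, 6.89% were called lower and 4.54% higher in that comparison. Between YG+ and PBS pDCs 0 of the 8 were called by edgeR, where 0% of all genes were called, and Cd80 and Il12b had unadjusted p under 0.05, both higher. Over all genes 4.69% had such a p and were higher in YG+ pDCs, and 6.72% were lower. Between YG+ pDCs and Sirpa+ DCs 0 of the 8 were called, against 4.09% of all genes called lower and 3.07% called higher. Unadjusted p under 0.05 was found for 5 of the 8, each lower in YG+ pDCs, against 12.6% of all genes lower and 10.2% higher. The number called between YG+ pDCs and Sirpa+ DCs was 4 in a fit of only the 4 libraries compared, which called 1480 of 7934 genes where the main fit called 583 of 8141. Limma-voom also called 0 of the 8 between YG+ and PBS pDCs, and 0 of all genes. DESeq2 called 111 of all genes, and gave an adjusted p to 4 of the 8 (Cd86, Cd83, Cd274 and Traf1), of which it called 0; it gave none to Cd40, Cd80, Il15ra and Il12b. The 5 calls between PBS pDCs and Sirpa+ DCs fell to 0 without Sirpa+ DC replicate 2 and to 1 (Cd80) without Sirpa+ DC replicate 1, while calls over all genes went from 931 to 214 of 8665 and to 316 of 9442.

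**Figure D1:**
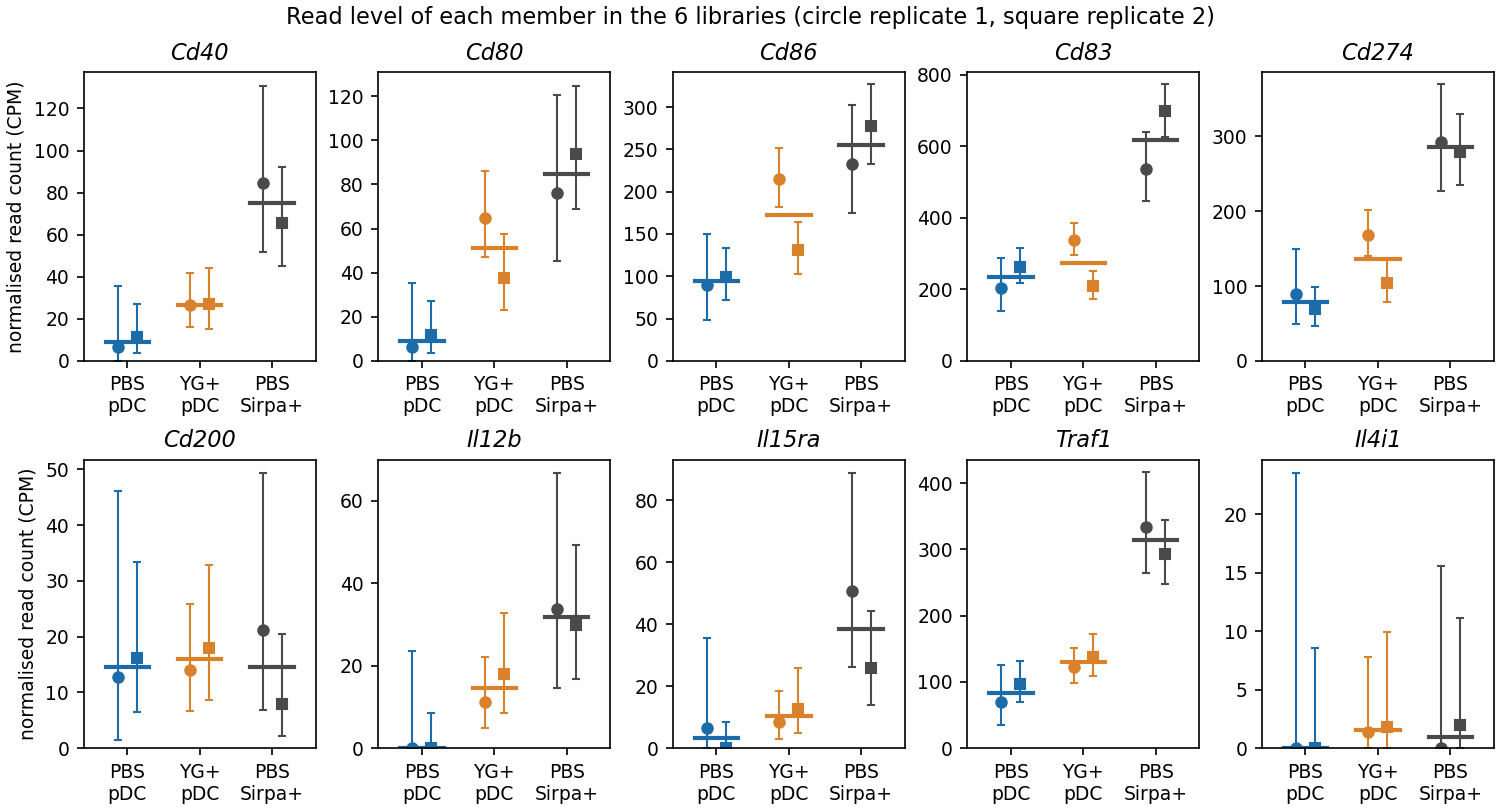
Level of each of the 10 genes (CPM) in the 6 libraries, by group. Points are libraries, and for 7 of the 8 tested genes the YG+ pDC libraries lie between the PBS pDC and the Sirpa+ DC libraries.

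Cd80 encodes one of the B7 ligands (ENSMUSG00000075122.5, GRCm38 chromosome 16, 38455561 to 38496335, plus strand). It was at 6.38 and 11.6 CPM in the PBS pDC libraries, which is 1 and 5 counts, at 64.6 and 37.6 in YG+ pDCs (46 and 21 counts), and at 76.2 and 93.7 in Sirpa+ DCs (18 and 47 counts). No group overlapped another. On the means YG+ pDCs were nearer to Sirpa+ DCs (a difference of -33.8 CPM) than to PBS pDCs (42.1 CPM). YG+ replicate 2 alone was nearer to PBS pDCs in CPM. In PBS pDCs Cd80 was lower than in Sirpa+ DCs with a log2 fold change of -3.07 and an SE of 0.63 (edgeR quasi-likelihood test, adjusted p = 0.0111); fold changes below carry their SE in the same way. Between YG+ and PBS pDCs the log2 fold change was 2.34 ± 0.64, with a 95% interval of 0.94 to 3.74 and an unadjusted p of 0.00358 that did not pass adjustment over all genes (adjusted p = 0.315). YG+ pDCs and Sirpa+ DCs differed by -0.73 ± 0.47 (interval -1.76 to 0.29, adjusted p = 0.386). The AP-1 and TATAAA matches printed above lie at a start inside the annotated span of this gene.

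Cd86 encodes the other B7 ligand (ENSMUSG00000022901.13, chromosome 16, 36603869 to 36666081, minus strand). Its levels were 89.3 and 99.5 CPM in PBS pDCs, 215 and 131 in YG+ pDCs, and 233 and 277 in Sirpa+ DCs. The groups kept the order seen for Cd80 without overlap, but PBS pDCs stood at 37.0% of the Sirpa+ DC mean for Cd86 and at 10.6% for Cd80. The log2 fold change of Cd86 was -1.42 ± 0.44 between PBS pDCs and Sirpa+ DCs (adjusted p = 0.0613), 0.86 ± 0.44 between YG+ and PBS pDCs (interval -0.10 to 1.82, adjusted p = 0.483), and -0.56 ± 0.41 between YG+ pDCs and Sirpa+ DCs (interval -1.46 to 0.34, adjusted p = 0.455). Cd86 passed the threshold in none of the 3. Its log2 fold change between YG+ and PBS pDCs was 0.48 without YG+ replicate 1 and 1.21 without YG+ replicate 2.

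The division of B7 reads between the ligands was measured within each library, which does not depend on scaling. The share was chosen for description after the counts had been seen. Cd80 took 6.67% of the Cd80 and Cd86 reads in PBS pDC replicate 1 (1 of 15 reads, Wilson 95% interval 1.19% to 29.8%) and 10.4% in replicate 2 (5 of 48, 4.53% to 22.2%). In YG+ pDCs it took 23.1% (46 of 199, 17.8% to 29.4%) and 22.3% (21 of 94, 15.1% to 31.8%). In Sirpa+ DCs it took 24.7% (18 of 73, 16.2% to 35.6%) and 25.3% (47 of 186, 19.6% to 32.0%). YG+ pDCs were above both PBS pDC libraries, by 14.2 percentage points on the means (22.7% ± 0.548 and 8.54% ± 2.65), and differed from Sirpa+ DCs by -2.24 percentage points. The exact two-sided permutation test gave p = 0.333, the smallest that 2 libraries against 2 allow, so none of the 9 comparisons of shares within the set could pass 0.05. The intervals of the PBS pDC and YG+ pDC libraries overlapped.

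**Figure D2:**
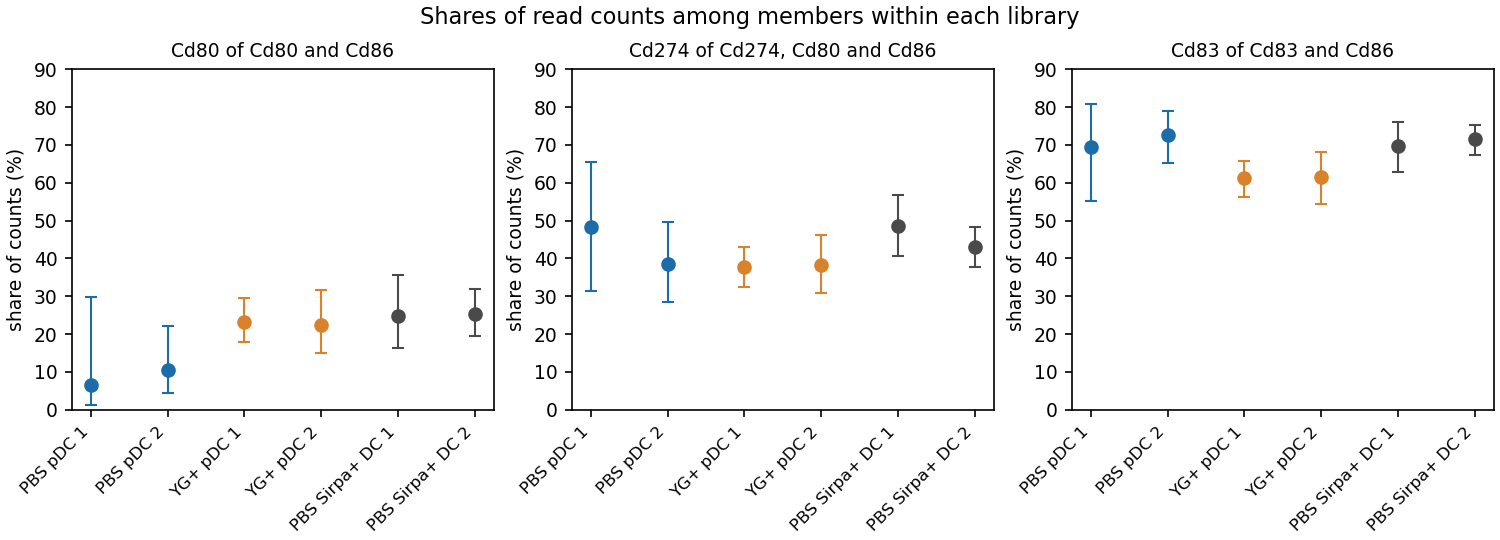
Share of Cd80 among Cd80 and Cd86 reads, and the other read shares within the set, in percent for each library, with Wilson 95% intervals. The Cd80 share is 6.67% and 10.4% in PBS pDCs and lies between 22.3% and 25.3% in the other 4 libraries.

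Cd40 encodes the receptor for CD40 ligand (ENSMUSG00000017652.16, chromosome 2, 165055627 to 165072948, plus strand). PBS pDCs had 6.38 and 11.6 CPM (1 and 5 counts), YG+ pDCs 26.7 and 26.8 (19 and 15 counts), and Sirpa+ DCs 84.6 and 65.8 (20 and 33 counts). The groups did not overlap, and the YG+ libraries were 35.6% of the Sirpa+ DC mean, against 60.2% for Cd80. Cd40 was lower in PBS pDCs than in Sirpa+ DCs by -2.87 ± 0.63 on the log2 scale (adjusted p = 0.0156). YG+ pDCs differed from PBS pDCs by 1.40 ± 0.66 (interval -0.04 to 2.85, adjusted p = 0.452) and from Sirpa+ DCs by -1.46 ± 0.50 (adjusted p = 0.107).

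Traf1 encodes an adaptor of the TNF receptor family that is itself raised by NF-kB (ENSMUSG00000026875.14, chromosome 2, 34941750 to 34961772, minus strand). It was at 70.2 and 97.2 CPM in PBS pDCs, 122 and 138 in YG+ pDCs, and 334 and 293 in Sirpa+ DCs, in the same order and without overlap. PBS pDCs were below Sirpa+ DCs by -1.86 ± 0.42 on the log2 scale (adjusted p = 0.0171). The distance of YG+ pDCs from PBS pDCs was 0.60 ± 0.42 (interval -0.32 to 1.52, adjusted p = 0.630), and from Sirpa+ DCs -1.27 ± 0.39 (adjusted p = 0.0787). On these means YG+ pDCs stood at 41.4% of the Sirpa+ DC level and PBS pDCs at 26.7%.

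Cd83 encodes a surface protein that marks mature DCs and stabilises B7 and MHC class II on the membrane (ENSMUSG00000015396.4, chromosome 13, 43784775 to 43803132, plus strand). It had 204 and 264 CPM in PBS pDCs, 339 and 209 in YG+ pDCs, and 537 and 698 in Sirpa+ DCs. This was the 1 tested gene of the set in which the pDC groups overlapped, with YG+ replicate 2 between the PBS pDC libraries. The log2 fold change between YG+ and PBS pDCs was 0.22 ± 0.43 (interval -0.74 to 1.17, adjusted p = 0.893), and -0.15 without YG+ replicate 1. Differences from Sirpa+ DCs were -1.39 ± 0.44 for PBS pDCs (adjusted p = 0.0669) and -1.17 ± 0.43 for YG+ pDCs (adjusted p = 0.132). Among reads of Cd83 and Cd86 together, Cd83 took 61.2% and 61.6% in YG+ pDCs, 69.6% and 72.6% in PBS pDCs, and 69.8% and 71.6% in Sirpa+ DCs. The YG+ libraries were lowest of the 3 groups in this share (exact permutation p = 0.333 against each, the smallest possible here).

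Among the co-inhibitory molecules, Cd274 encodes PD-L1, the ligand of PD-1 (ENSMUSG00000016496.7, chromosome 19, 29367455 to 29388095, plus strand). Its levels were 89.3 and 69.4 CPM in PBS pDCs, 169 and 104 in YG+ pDCs, and 292 and 279 in Sirpa+ DCs, again ordered without overlap. It was lower in PBS pDCs than in Sirpa+ DCs by -1.87 ± 0.45 on the log2 scale (adjusted p = 0.0218). YG+ pDCs differed from PBS pDCs by 0.81 ± 0.45 (interval -0.17 to 1.79, adjusted p = 0.526) and from Sirpa+ DCs by -1.06 ± 0.41 (adjusted p = 0.154). In YG+ pDCs Cd274 differed from PBS pDCs by 0.43 without YG+ replicate 1 and by 1.14 without YG+ replicate 2. As a share of the reads of Cd274, Cd80 and Cd86, it took 37.6% and 38.2% in YG+ pDCs, 48.3% and 38.5% in PBS pDCs, and 48.6% and 42.9% in Sirpa+ DCs. YG+ pDCs were lowest by this share, narrowly below PBS pDC replicate 2, and the PBS groups overlapped each other. An exon of AC119228.1 lies opposite 14.1% of the exon length of Cd274, and no source used here gives the strand setting of the counts.

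Cd200 encodes the ligand of the inhibitory receptor CD200R (ENSMUSG00000022661.14, chromosome 16, 45382135 to 45409053, minus strand). It had 12.8 and 16.2 CPM in PBS pDCs (2 and 7 counts), 14.0 and 17.9 in YG+ pDCs (10 and 10 counts), and 21.2 and 7.97 in Sirpa+ DCs (5 and 4 counts). All groups overlapped, and YG+ pDCs stood at 109.6% and PBS pDCs at 99.4% of the Sirpa+ DC mean. Cd200 was not part of the main test for its low counts. Fitted without a filter, its log2 fold changes were 0.17 ± 0.95 between PBS pDCs and Sirpa+ DCs (adjusted p = 0.993), 0.14 ± 0.88 between YG+ and PBS pDCs and 0.32 ± 0.86 between YG+ pDCs and Sirpa+ DCs (adjusted p = 0.951). At these counts a difference was not detectable.

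Il12b encodes the p40 subunit shared by IL-12 and IL-23 (ENSMUSG00000004296.14, chromosome 11, 44400063 to 44414033, plus strand). It had 0 counts in both PBS pDC libraries, 8 and 10 counts in YG+ pDCs (11.2 and 17.9 CPM), and 8 and 15 in Sirpa+ DCs (33.9 and 29.9 CPM). Pooled over the group, 0 counts in PBS pDCs allow up to 5.09 CPM. Against that limit Il12b was at least 6.12-fold lower in PBS pDCs than in Sirpa+ DCs (adjusted p = 0.0231). It was at least 2.78-fold higher in YG+ than in PBS pDCs, where the unadjusted p was 0.00854 and the adjusted p 0.315. Both folds take the level of the higher group as exact and leave out its counting error, as do the bounds given below. The call against Sirpa+ DCs was lost when YG+ replicate 2, PBS pDC replicate 2 or either Sirpa+ DC library was left out. YG+ pDCs and Sirpa+ DCs differed by -1.12 ± 0.71 on the log2 scale (interval -2.70 to 0.46, adjusted p = 0.387). The printed window of this gene held no match to the searched motifs.

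Il15ra encodes the receptor chain that presents IL-15 to neighbouring lymphocytes (ENSMUSG00000023206.16, chromosome 2, 11705290 to 11734317, plus strand). Counts were 1 and 0 in PBS pDCs, 6 and 7 in YG+ pDCs and 12 and 13 in Sirpa+ DCs, or 6.38 and 0, 8.43 and 12.5, and 50.8 and 25.9 CPM. The libraries followed the order of the groups without overlap. With 1 count in PBS pDCs, the ratio of Sirpa+ DCs to PBS pDCs was 19.95 with a counting interval of 3.27 to 819 (adjusted p = 0.0529). The fitted log2 fold change was -4.15, and it was -2.50 without PBS pDC replicate 2. Without PBS pDC replicate 1 that group held 0 counts, so no fold is given. Without a filter on low counts the adjusted p was 0.0120. The ratio of YG+ to PBS pDCs was 6.02, with an interval of 0.905 to 256 (adjusted p = 0.551). Between YG+ pDCs and Sirpa+ DCs the log2 fold change was -1.80 ± 0.80 (adjusted p = 0.210).

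Il4i1 encodes a secreted enzyme that degrades phenylalanine and restrains T cells (ENSMUSG00000074141.13, chromosome 7, 44816387 to 44840809, plus strand). It had 1 count in each YG+ pDC library, 0 in both PBS pDC libraries, and 0 and 1 in Sirpa+ DCs. All 3 groups were at or under 3 counts, so no fold is given. Exons of Atf5 and Tbc1d17 lie opposite 85.9% of its exon length.

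**Figure D3:**
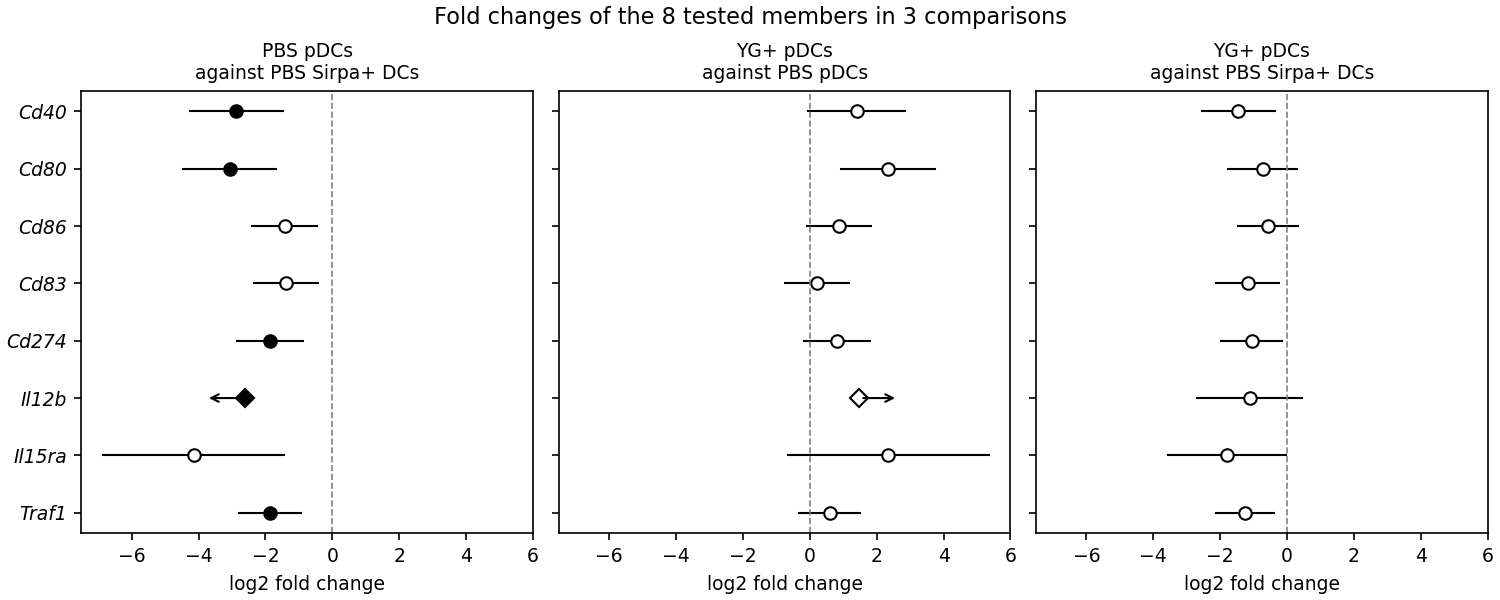
Log2 fold change of each tested gene in the 3 comparisons, with 95% intervals and the bound for Il12b where a group had 0 counts (filled points: adjusted p under 0.05, edgeR). Filled points are seen for Cd40, Cd80, Cd274, Traf1 and Il12b between PBS pDCs and Sirpa+ DCs, and in neither other comparison.

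Levels between genes were compared per kilobase of merged exon (mean CPM per kb). Cd83 was first in each group, with 240.1 in Sirpa+ DCs, 107 in YG+ pDCs and 91.0 in PBS pDCs. Cd86 (47.2 and 25.8) came before Cd274 (37.6 and 21.9) in YG+ and PBS pDCs, and Cd274 (78.8) before Cd86 (69.6) in Sirpa+ DCs. Traf1 was next in each group, with 35.6 in Sirpa+ DCs, 14.7 in YG+ pDCs and 9.49 in PBS pDCs. By YG+ pDCs, PBS pDCs and Sirpa+ DCs in turn, Cd80 (13.8, 2.42 and 22.9) and Cd40 (7.86, 2.64 and 22.1) lay close to each other in PBS pDCs and Sirpa+ DCs. Cd200, at 4.81, 4.36 and 4.39, was above Cd40 and Cd80 in PBS pDCs and below both elsewhere. Il12b was at 7.40, 0 and 16.2, Il15ra at 2.36, 0.717 and 8.63, and Il4i1 at 0.391, 0 and 0.244, so that Il12b and Il4i1 were both lowest in PBS pDCs and Il4i1 in the other groups.

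Among the 8 tested genes 7, with Cd83 as the exception, had both YG+ pDC libraries above both PBS pDC libraries and below both Sirpa+ DC libraries, an order found in 7.63% of all genes tested. Both PBS pDC libraries were below both Sirpa+ DC libraries for 8 of the 8, against 24.2% of all genes. Both YG+ libraries were above both PBS pDC libraries for 7 of the 8, against 26.5%, and below both Sirpa+ DC libraries for 8 of the 8, against 29.1%. These counts leave out Cd200 and Il4i1, in which groups overlapped except that Il4i1 was 1 count against 0 between the pDC groups. The comparisons share libraries, and Il12b and Il15ra had to be high in Sirpa+ DCs to be tested. The set was also chosen with earlier results of these data known, so the shares over all genes are a description and no independent test. The median log2 fold change of the 8 was -2.24 between PBS pDCs and Sirpa+ DCs with Il12b at its bound (0.08 over all genes), 1.13 between YG+ and PBS pDCs (0.08 over all genes), and -1.15 between YG+ pDCs and Sirpa+ DCs (0.04 over all genes).

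The summed level of mature or migratory DC markers had the same order of groups as most of the set. The 12 markers summed to 884 to 1040 CPM in PBS pDCs, 2031 to 2527 in YG+ pDCs and 6930 to 8213 in Sirpa+ DCs. Ccl17 and Anxa3 were at 0 in PBS pDCs and the other 10 were detected in every group. Between PBS and YG+ pDCs, Ccr7 (376 and 257 against 507 and 336 CPM) and Relb (51.0 and 109 against 81.5 and 91.3 CPM) overlapped. So did Socs2 (25.5 and 9.26 against 18.3 and 16.1 CPM), and the other markers of the list were higher in both YG+ libraries. Relative to Sirpa+ DCs the sum was 30.1% in YG+ pDCs and 12.7% in PBS pDCs. Macrophage markers (6) summed to 57.8 to 140.3 CPM in PBS pDCs, where Mertk was at 0, and 2061 to 3300 in Sirpa+ DCs. In YG+ pDCs they summed to 928 CPM in replicate 1 and 338 in replicate 2. Of the 2 YG+ libraries, replicate 1 was also the higher for Cd80, Cd86, Cd83 and Cd274. Replicate 2 was the higher for Traf1, Il12b, Il15ra and Cd200, and Cd40 was alike in both. The 4 cDC1 markers summed to 57.4 to 69.4 CPM in PBS pDCs, where Batf3 was at 0, 104 to 118 in YG+ pDCs and 504 to 575 in Sirpa+ DCs. Of these, Xcr1 overlapped between PBS pDCs (25.5 and 2.31 CPM) and YG+ pDCs (15.5 and 8.95 CPM). The part of other cells in the levels above was not tested, and in bulk libraries more cells of a type and more RNA per cell cannot be told apart.

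**Figure D4:**
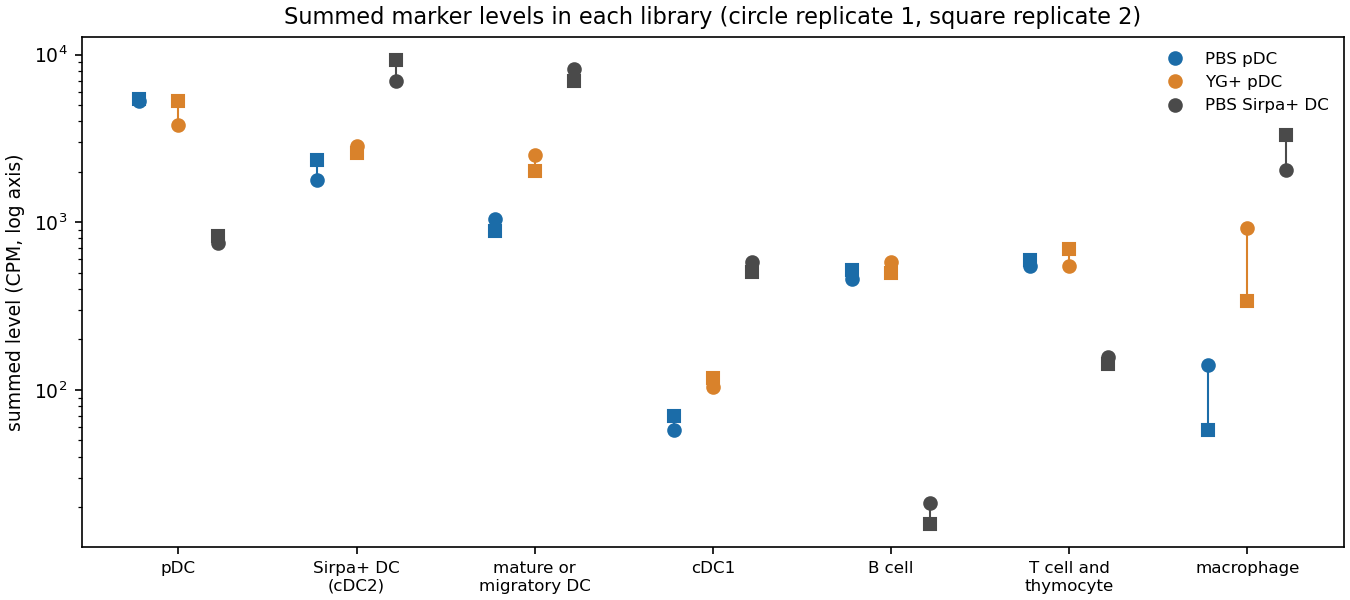
Summed CPM of each marker list (log axis) in each library. For mature DC, macrophage and cDC1 markers the PBS pDC libraries are lowest, the YG+ pDC libraries next and the Sirpa+ DC libraries highest, while pDC markers are lowest in Sirpa+ DCs.

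Other genes of the same functions were counted from lists chosen by function, with earlier results of these data known. In the list of CD40 and NF-kB signalling, 5 of 18 tested genes were called lower in PBS pDCs than in Sirpa+ DCs and 0 higher, against 6.89% and 4.54% of all genes. The log2 fold change was below 0 for 18 of the 18, with a median of -0.90. Rel, an NF-kB subunit, was 216 ± 44.3 CPM in PBS pDCs, 463 ± 44.7 in YG+ pDCs and 759 ± 20.4 in Sirpa+ DCs (adjusted p = 0.0192 for PBS pDCs against Sirpa+ DCs). Traf6, an adaptor of CD40 and of Toll-like receptors, was 29.5 ± 23.7, 105 ± 8.92 and 142 ± 20.5 CPM in the same order (adjusted p = 0.0297). Map3k14, the kinase of the noncanonical pathway, had an adjusted p of 0.0310 and Relb, the subunit that pathway releases, 0.0374. The fifth was the survival gene Bcl2l1 (adjusted p = 0.0442), which was named after its value had been seen. Bcl2l1 had enough counts to be tested only through the Sirpa+ DC libraries, where it was highest. Between YG+ and PBS pDCs 0 of the 18 were called, the median was 0.60 against 0.08 over all genes, and Traf6 differed by 1.61 ± 0.52 (adjusted p = 0.315) and Rel by 1.08 ± 0.41 (adjusted p = 0.358). Relb was 79.9 ± 40.8 CPM in PBS pDCs, 86.4 ± 6.92 in YG+ pDCs and 267 ± 17.0 in Sirpa+ DCs, and was the 1 gene of this list called lower in YG+ pDCs than in Sirpa+ DCs (-1.63 ± 0.43, adjusted p = 0.0458). Over all genes 4.09% were called lower in that comparison.

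Of the other costimulatory ligands, 8 of 14 were tested. In PBS pDCs against Sirpa+ DCs 1 was called higher and 2 were called lower, against 4.54% and 6.89% of all genes. Of those called lower, Slamf1 had enough counts to be tested only through the Sirpa+ DC libraries, where it was highest. The median log2 fold change of the list was -0.61 (0.08 over all genes). Icosl, the ligand of ICOS, was 29.5 ± 12.3 CPM in PBS pDCs, 57.8 ± 4.28 in YG+ pDCs and 159 ± 26.7 in Sirpa+ DCs (-2.55 ± 0.50 for PBS pDCs against Sirpa+ DCs, adjusted p = 0.00883). Slamf1, a self-binding receptor of the SLAM family, was lower in both pDC groups (15.3 ± 3.71 CPM in YG+ and 8.69 ± 5.75 in PBS pDCs) than in Sirpa+ DCs, whose libraries had 461 and 134 CPM (adjusted p = 0.00484 and 0.00281). Cd24a, a surface glycoprotein, was the 1 called higher in PBS pDCs, at 125 ± 22.3 against 36.2 ± 14.6 CPM in Sirpa+ DCs (adjusted p = 0.0330). Tnfsf4, which encodes OX40 ligand, had its highest level in YG+ pDCs, at 43.8 ± 3.68 CPM against 13.3 ± 0.797 in PBS pDCs and 5.98 ± 8.46 in Sirpa+ DCs, but no comparison was called (adjusted p = 0.436 between the pDC groups and 0.0830 against Sirpa+ DCs). Tnfsf4 had enough counts to be tested only through the YG+ pDC libraries, where it was highest. None of these ligands (0 of the 8) was called between YG+ and PBS pDCs, where 0% of all genes were called.

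Of the other co-inhibitory and tolerance molecules, 16 of 22 were tested, and 1 was called higher and 3 were called lower in PBS pDCs than in Sirpa+ DCs. Over all genes 4.54% were called higher and 6.89% lower in that comparison. Havcr2, which encodes TIM-3, was 19.7 ± 8.22 CPM in PBS pDCs, 29.6 ± 6.16 in YG+ pDCs and 253 ± 46.0 in Sirpa+ DCs, and was lower in both pDC groups (adjusted p = 0.00159 and 0.00381). Lair1, a collagen-binding inhibitory receptor, went the other way, with 267 ± 107 CPM in PBS pDCs, 330 ± 59.6 in YG+ pDCs and 70.0 ± 39.2 in Sirpa+ DCs (adjusted p = 0.0358 and 0.0254). Lilrb4, an inhibitory receptor of myeloid cells, was 51.2 ± 9.33 CPM in PBS pDCs and 255 ± 8.15 in Sirpa+ DCs (adjusted p = 0.00942), and Entpd1, the ectoenzyme CD39, 30.4 ± 15.9 and 119 ± 42.9 CPM (adjusted p = 0.0446). Between YG+ and PBS pDCs 0 of the 16 were called, where 0% of all genes were called, and the median was 0.19 (0.08 over all genes).

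Of the IL-12 and IL-15 cytokine families and receptors, 6 of 14 were tested. Against Sirpa+ DCs, 1 of the 6 was called higher and 1 lower in each pDC group. Over all genes 4.54% were called higher and 6.89% lower in PBS pDCs. For YG+ pDCs these shares were 3.07% and 4.09%. Il2rb, the receptor chain that IL-15 shares with IL-2, was at 0 counts in Sirpa+ DCs and at 86.3 ± 4.24 CPM in PBS pDCs and 54.3 ± 18.6 in YG+ pDCs, at least 20.9-fold and 13.7-fold higher (adjusted p = 0.00204 and 0.00557). Il15ra, the chain that presents IL-15, had its lowest level where Il2rb had its highest. Il1b was the 1 gene of the list called lower in both pDC groups, at 6.66 ± 0.399 CPM in PBS pDCs and 27.7 ± 1.37 in YG+ pDCs against 579.9 ± 149.9 in Sirpa+ DCs (adjusted p = 6.91e-04 and 0.00137). Tnf was 64.9 ± 16.5 CPM in PBS pDCs, 47.5 ± 6.38 in YG+ pDCs and 17.1 ± 18.2 in Sirpa+ DCs, and Il2ra 4.63 ± 6.54, 20.8 ± 14.3 and 45.2 ± 1.90 CPM, with no call for either. Among T cell side receptors 3 of 13 were tested, and Tnfrsf4, the OX40 receptor, was at 0 counts in PBS pDCs, 8.88 ± 2.63 CPM in YG+ pDCs and 44.8 ± 15.5 CPM in Sirpa+ DCs (at least 9.58-fold lower in PBS pDCs, adjusted p = 0.0127). Tnfrsf4, Slamf1, Il2ra and Bcl2l1, like Il12b and Il15ra, had enough counts to be tested only through the Sirpa+ DC libraries. Il2rb had enough only through the pDC libraries. Lag3, a receptor for MHC class II that pDCs also express, lay the other way, at 164 ± 52.1 CPM in PBS pDCs, 127 ± 18.2 in YG+ pDCs and 65.9 ± 8.57 in Sirpa+ DCs (1.36 ± 0.44 for PBS pDCs against Sirpa+ DCs, adjusted p = 0.0733).

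Genes whose profile over the 6 libraries was most like the mean profile of the 8 tested genes were ranked by Pearson r among 6983 genes of at least 20 CPM on average, as a description. Ccl22, a chemokine of mature DCs, was first with r = 0.999 and levels of 152 ± 16.9 CPM in PBS pDCs, 398 ± 74.6 in YG+ pDCs and 1112 ± 109 in Sirpa+ DCs. Etv3, an ETS family repressor, followed with r = 0.998 and 46.6 ± 2.79, 146 ± 44.2 and 511 ± 41.0 CPM. Aif1, Isg15 and Lyz1 came next, at r = 0.998, 0.997 and 0.997. Within the set, r of a gene with the mean of the other 7 was highest for Cd40 (0.979) and lowest for Il15ra (0.859) and Cd83 (0.862). The points of each r share the 6 libraries and their depth.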

How the data were processed

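RNA of 6 libraries of sorted thymic DCs was examined. The labels' protocols give TRIzol for the extraction and, for library construction, Ovation SoLo RNA-Seq Mouse with an input of 5 ng RNA. The deposited files hold, for each gene symbol, the authors' read counts as whole numbers without normalisation. Demultiplexing software (bcl2fastq 2.17) and the genome build (mm10) are named in the submitters' processing notes. No source used here gives the aligner, counting program, annotation or strand setting. The 5 summary lines that name no gene (97.7% to 99.5% of records) stayed out of library sizes and tests.

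Genes kept by filterByExpr (8141) were scaled by TMM (factors 0.924 to 1.09) and tested with edgeR 4.0.16 (glmQLFit and glmQLFTest, R 4.3.3) in 1 fit of 3 group means, with 3 residual degrees of freedom. The biological coefficient of variation was 33.0%. Calls used Benjamini-Hochberg adjusted p under 0.05 over all genes of a comparison. On simulated counts for YG+ against PBS pDCs (8141 genes), the fit called 6.28% of genes changed 2-fold, 49.4% at 4-fold, 90.6% at 8-fold, and 0.0568% of unchanged genes. The simulation started from the mean of each gene over all libraries and changed YG+ pDCs against both PBS groups. Its spread followed a trend over genes, so these rates do not hold for genes with few counts in PBS pDCs. Coordinates, exon lengths and opposite-strand exons came from GENCODE M21 (GRCm38), to which 92.8% of symbols matched. Bounds used 3 counts over a group with 0 and left out the counting error of the other group. Every member was named, and of each other list at most the 4 genes with the smallest p (and Bcl2l1, named after its value was seen), plus the 5 genes most like the members. The members and lists were chosen with earlier results of these data known. Alternatives used other scalings and filters, DESeq2 1.42.0, limma-voom (limma 3.58.1), the 4 libraries compared, a replicate block and each library left out. Other steps ran in Python 3.11.15 with scipy 1.17.1, pandas 2.3.3 and numpy 2.4.6, and figures were drawn with matplotlib 3.10.9.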

Additional observations from a re-analysis of the deposited data

How the results depend on the processing

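Called genes between PBS pDCs and Sirpa+ DCs numbered 580, 2 of them members, in a fit of only the 4 libraries compared, where Cd274 (adjusted p = 0.0611) and Traf1 (0.0587) were lost and Il12b had too few counts to be tested. Leaving out 1 library gave 214 to 1297 genes and 0 to 6 members: 0 without Sirpa+ DC replicate 2, and Cd80 alone without Sirpa+ DC replicate 1. Il15ra was called under upper-quartile scaling (adjusted p = 0.0485), gene totals (0.0408), no filter (0.0120) and a filter at 10 CPM (0.0487), and without PBS pDC replicate 1 (0.0189), and was not under the other planned settings, with adjusted p up to 0.282 without Sirpa+ DC replicate 1. Cd83 was called by DESeq2 (0.0455) and without PBS pDC replicate 2 (0.0386). Among genes without an opposite-strand exon Cd83 (0.0240), Cd86 (0.0290) and Il15ra (0.0427) were called. Between YG+ and PBS pDCs, genes called numbered 141 without a filter, 111 by DESeq2 and 0 to 870 with 1 library left out (14 without YG+ replicate 2, 3 without PBS pDC replicate 1, 870 without PBS pDC replicate 2), with 0 members in each. The log2 fold change of Cd83 there was -0.15 without YG+ replicate 1 and 0.56 without YG+ replicate 2, the ends of its range with 1 library left out. Between YG+ pDCs and Sirpa+ DCs, called genes numbered 894 without a filter, 1480 in the 4 libraries compared and 69 to 1487 with 1 library left out. Members called were 4 in the 4 libraries compared (Cd40, Cd83, Cd274 and Traf1), 0 to 4 with 1 library left out (4 without either PBS pDC library), and 2 (Cd83 and Traf1) among genes without an opposite-strand exon, a restriction added after the data were seen. A group left with 1 library was assumed to vary like the others. The causes were not tested. No source used here pairs the libraries by replicate number. Correlations of deviations between replicates were -0.12 for YG+ and PBS pDCs and -0.10 for YG+ pDCs and Sirpa+ DCs. For PBS pDCs and Sirpa+ DCs the correlation was 0.30, which does not settle whether the PBS sorts were paired. A fit with the replicate block in all 3 groups called 942, 0 and 635 genes, with 5, 0 and 0 members. Over 133, 129 and 135 member values under alternatives in the 3 comparisons, direction held except for Cd83 above, 13 calls were lost and 24 gained. Low counts limit Il15ra, Il12b, Cd200 and Il4i1, and Cd40 and Cd80 in PBS pDCs.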
